A study of Mus musculus with 4 samples.

Results

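miR-7 and miR-671 are the miRNAs tied to the long noncoding RNAs Cyrano and Cdr1as. Their levels in the RISC of mouse brain were taken from Ago-RP-Seq, in which the Ago proteins are pulled down with a peptide of their partner GW182 and the small RNAs they hold (R-sRNAs) are sequenced. The members were chosen by name, as the rows annotated mmu-miR-7a-5p, mmu-miR-7b-5p, mmu-miR-7a-1-3p, mmu-miR-671-5p or mmu-miR-671-3p (mmu for mouse, left out below). They comprised 5 of 1029 miRNA names and 156 of 85704 sequences. The libraries came from BL6 mice of 2 months and of 18 months, with 2 libraries per age, and each was made from cortex and hippocampus combined. The mice were wild-type males on the C57BL/6J background per the methods, with no transgene and no treatment at either age. The sample labels do not say how many animals went into a library, so the p-values below measure the spread between these 4 libraries. Because tissue pieces were lysed, fewer cells holding a miRNA and less of it per cell cannot be told apart.

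The deposited values are normalized counts, CPM, in which each library is scaled to a common total. Dividing them by the worth of 1 read gave whole numbers, from which the depth was recovered. The libraries held 9067007 to 11388999 reads, and 3 reads were worth 0.263 to 0.331 CPM. Between the ages, 74 of 456 tested miRNAs (16.2%) passed an unadjusted p of 0.05 in limma. The brain neuron miRNAs miR-124-3p, miR-9-5p and miR-128-3p were abundant in every library, with a summed level of 169186 to 195706 CPM.

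As background, a miRNA finds its targets mainly through its seed, the bases that follow its 5′ base. Cdr1as is a circular RNA of neurons with many sites for the miR-7 seed, so that it binds miR-7 in large numbers. Cyrano pairs with miR-7 over the seed and over the 3′ part of the miRNA, which marks miR-7 for destruction in a process called target-directed miRNA degradation. miR-671-5p pairs with Cdr1as over almost its whole length and directs Ago2 to cut it.

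The mature sequences show how the members are related, with the seed (positions 2 to 8, counted from 1 at the 5′ end) in capitals. They are RefSeq sequences on GRCm38.p6, and all 5 members had an entry.
mmu-miR-7a-5p: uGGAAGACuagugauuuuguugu
mmu-miR-7b-5p: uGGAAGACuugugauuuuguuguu
mmu-miR-7a-1-3p: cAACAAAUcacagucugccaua
mmu-miR-671-5p: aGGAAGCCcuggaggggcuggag
mmu-miR-671-3p: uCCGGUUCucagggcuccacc

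miR-7a-5p and miR-7b-5p share the seed and differ at A10U (miR-7a-5p first), a position past the seed, and the reference miR-7b-5p is also longer by 1 base. The seeds of miR-7a-5p and miR-671-5p differ at A7C only. The 3p arms of miR-7a have sequences of their own for each hairpin, and between miR-7a-1-3p and miR-7a-2-3p the differences are A7G, A10C and U21C. Identical miR-7a-5p is made from both Mir7-1 and Mir7-2, so its reads do not tell the hairpins apart, whereas the 3p reads do.

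The hairpins lie on 4 chromosomes. Mir7-1 sits on the minus strand at chr13:58392779-58392886, in an intron of Hnrnpk, a gene for an RNA-binding protein, on the same strand. Mir7-2 is at chr7:78888277-78888373 and Mir7b at chr17:56242988-56243098, both on the plus strand and with no overlapping gene in the GENCODE annotation other than the miRNA itself. Mir671 is at chr5:24592114-24592211 on the plus strand, where it overlaps coding exons of 2 transcripts of Chpf2, an enzyme gene of chondroitin synthesis, and an exon of Smarcd3 on the opposite strand.

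The target sites of the network are shown for the same reason, as sites on GRCm38 with the bases that match the miRNA's seed in capitals. The annotation lists Cyrano as 1700020I14Rik (RefSeq Oip5os1), and C230004F18Rik (RefSeq Cdr1os) is the host transcript of Cdr1as.
Cyrano, site with extended pairing to miR-7, chr2:119602138-119602161, plus strand, exon 3 of 3: caacaaaatcaccaatGTCTTCCa
Cyrano, other match to the miR-7 seed, chr2:119599948-119599971, plus strand, exon 3 of 3: aggttttttttttaatGTCTTCCa
C230004F18Rik, site for miR-671-5p, chrX:61186029-61186051, plus strand, exon 8 of 8: ttccagcatctccagGGCTTCCa

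In the Cyrano site with extended pairing, the match to the seed was joined by a run of 12 further bases complementary to the 3′ part of miR-7a-5p. No such run stood beside the other match. The seed match (GTCTTCC, on the transcript strand) occurred 2 times in the Cyrano transcript of 8300 nucleotides, where 47.4% of 1091 transcripts within 10% of that length held at least 1 match. In the C230004F18Rik transcript of 19658 nucleotides it occurred 125 times (this is the linear transcript, as the annotation used here has no entry for the circle), and the highest count among 26 transcripts of like length was 4. The site for miR-671-5p paired at 19 of 23 positions. These are descriptions of sequence and not of binding in these samples.

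Both miR-7 5p miRNAs were lower in the RISC at 18 months, at an unadjusted p only. miR-7a-5p stood at 183 and 192 CPM at 2 months, against 116 and 136 CPM at 18 months (means 188 ± 6.30 and 126 ± 14.3 CPM, SD, n = 2 each). The ages did not overlap, and the log2 change was −0.57 ± 0.21 (SE, limma on log2(CPM + 1)). Its unadjusted p was 0.0331 and its adjusted p 0.266 in limma. miR-7b-5p stood at 86.2 and 77.5 CPM at 2 months, against 43.8 and 53.5 CPM at 18 months (means 81.9 ± 6.14 and 48.6 ± 6.86 CPM, SD, n = 2 each). Again both old libraries lay below both young ones, with a log2 change of −0.74 ± 0.23 (unadjusted p = 0.0171, adjusted p = 0.251, limma).

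Across all miRNAs tested, 12.1% fell and 4.17% rose at an unadjusted p under 0.05, and in 41.4% both 18-month libraries lay below both 2-month libraries. Among the 5 members, 2 fell, none rose, and none passed after adjustment (0.219% of all tested miRNAs did). Over all 456 miRNAs the median log2 change was −0.22, a shift shared by most miRNAs. With libraries scaled to the median of ratios instead, that median was −0.01, and the log2 changes became −0.36 for miR-7a-5p (unadjusted p = 0.130, limma) and −0.54 for miR-7b-5p (unadjusted p = 0.0518, limma), neither past the threshold. Of the tested miRNAs, 15.8% had a change at or below that of miR-7a-5p and 9.21% at or below that of miR-7b-5p.

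**Figure D1:**
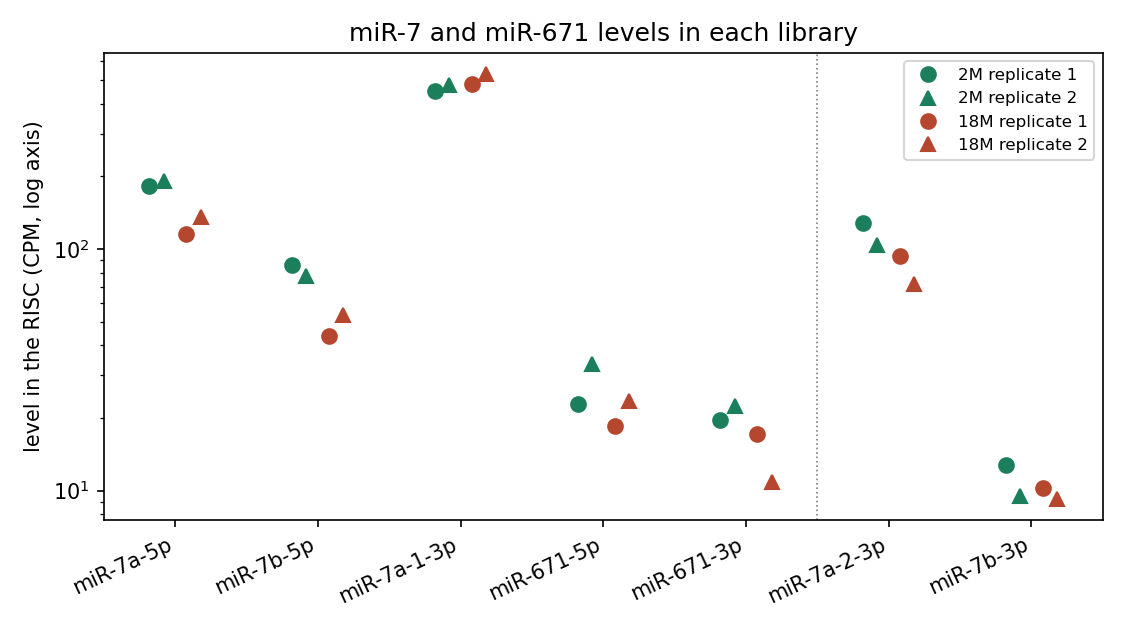
Level in the RISC in CPM (log axis) of the 5 members and, right of the dotted line, of the other 3p arms of the miR-7 hairpins, with 1 point per library, circles for replicate 1 and triangles for replicate 2. The 18-month points of miR-7a-5p (116 and 136 CPM) and miR-7b-5p (43.8 and 53.5 CPM) sit below the 2-month points, while those of miR-7a-1-3p do not.

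miR-7a-1-3p, the opposite arm of the Mir7-1 hairpin, was the most abundant member and did not change detectably. It stood at 452 and 480 CPM at 2 months, against 481 and 530 CPM at 18 months. Both 18-month libraries lay above both 2-month libraries (12.1% of tested miRNAs did so), but by little, and the log2 change was 0.12 ± 0.20 (unadjusted p = 0.583, adjusted p = 0.777, limma). It held more reads in the RISC of these brains than miR-7a-5p, which both hairpins make.

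The miR-671 arms were the least abundant members. miR-671-5p, which directs the cutting of Cdr1as, stood at 22.9 and 33.5 CPM at 2 months, against 18.4 and 23.5 CPM at 18 months. The ages overlapped, with a log2 change of −0.39 ± 0.30 (unadjusted p = 0.236, adjusted p = 0.499, limma). miR-671-3p, the opposite arm, stood at 19.6 and 22.4 CPM at 2 months, against 17.2 and 10.8 CPM at 18 months. Its ages did not overlap, but the change of −0.58 ± 0.32 did not pass the test (unadjusted p = 0.116, adjusted p = 0.402, limma). Either arm had 98 to 381 reads per library, and its standard error was larger than those of the miR-7 members.

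**Figure D2:**
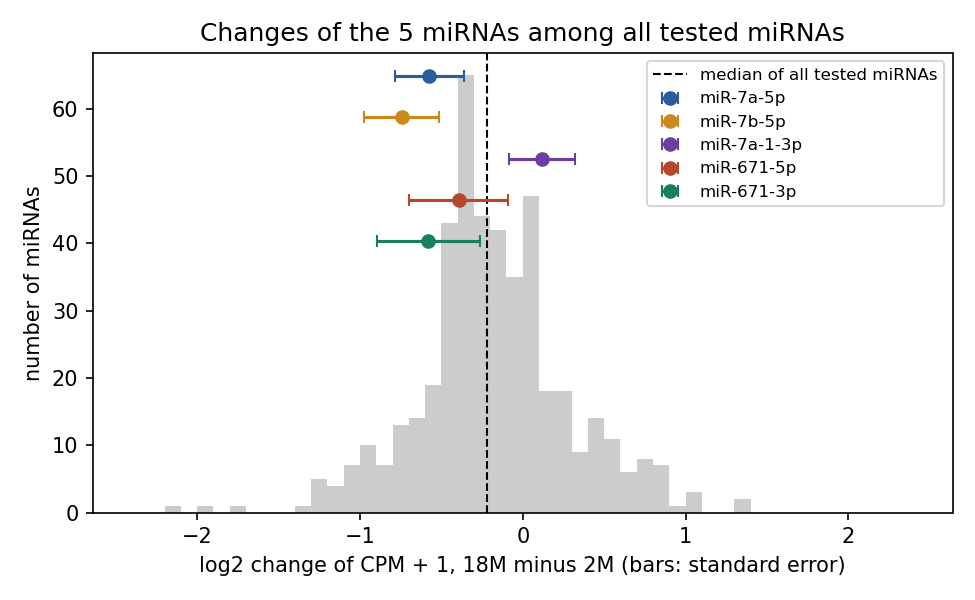
Histogram of the log2 change of CPM + 1 (18 months minus 2 months) of 456 miRNAs, with the 5 members as points (bars: standard error) placed at arbitrary heights and the median of all miRNAs as a dashed line. miR-7a-5p and miR-7b-5p lie left of the median of −0.22 by more than their standard errors, and miR-7a-1-3p lies right of it at 0.12.

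The other 3p arms of the family were measured too. miR-7a-2-3p, from Mir7-2, stood at 128 and 104 CPM at 2 months, against 93.2 and 71.8 CPM at 18 months, and its change of −0.49 ± 0.24 did not pass the test (unadjusted p = 0.0896, adjusted p = 0.361, limma). miR-7b-3p stood at 12.8 and 9.48 CPM at 2 months, against 10.2 and 9.27 CPM at 18 months, close to the minimum mean of 10 CPM for testing. Its ages overlapped (log2 change −0.16 ± 0.31), and the direction turned to 0.03 after rescaling by the median of ratios.

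Ratios within a library do not depend on how the libraries were scaled, so the 5p and 3p miRNAs of the family were compared with each other. As Mir7-1 and Mir7-2 both make miR-7a-5p, its ratio to miR-7a-1-3p is not the arm ratio of a single hairpin. For each read of miR-7a-1-3p there were 0.405 and 0.400 reads of miR-7a-5p at 2 months, against 0.241 and 0.257 at 18 months. The log2 ratio was −1.31 ± 0.0122 at 2 months and −2.01 ± 0.0636 at 18 months (SD, n = 2 each). The difference of −0.69 was larger than the spread between replicates, and the exact permutation test gave p = 0.33, the smallest that 2 libraries against 2 allow. In other words, miR-7a-5p made up 28.8% (95% Wilson interval 27.8% to 29.9%) and 28.6% (27.6% to 29.6%) of the reads of this pair at 2 months. At 18 months the values were 19.4% (18.5% to 20.4%) and 20.4% (19.4% to 21.5%).

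Among 142 hairpins with both arms tested under a common name, the ages did not overlap in 36.6%, and the median change of the 5p to 3p log2 ratio was −0.11, with a range of −1.66 to 1.66. A change at least as large as that of miR-7a-5p over miR-7a-1-3p, in either direction, was seen in 13.4% of them. Those pairs share a name, whereas miR-7a-5p is also made from Mir7-2, so the measures are not fully alike. The intervals of shares cover counting error only, since PCR reads are not independent molecules.

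The other pairs of the family differed in the same direction where the 5p arm was set against its own 3p arm, except for Mir7-2. miR-7b-5p over miR-7b-3p was 6.75 and 8.18 at 2 months, against 4.29 and 5.77 at 18 months (log2 difference −0.58, exact permutation p = 0.33). miR-7a-5p over miR-7a-2-3p was 1.43 and 1.84 at 2 months, against 1.24 and 1.90 at 18 months, with the ages overlapping (log2 difference −0.08, exact permutation p = 1). Between the hairpins, miR-7a-2-3p over miR-7a-1-3p was 0.283 and 0.217 at 2 months, against 0.194 and 0.135 at 18 months (log2 difference −0.61, exact permutation p = 0.33). The Mir7-1 arm thus took 77.9% and 82.2% of the miR-7a 3p reads in the young libraries and 83.8% and 88.1% in the old ones.

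**Figure D3:**
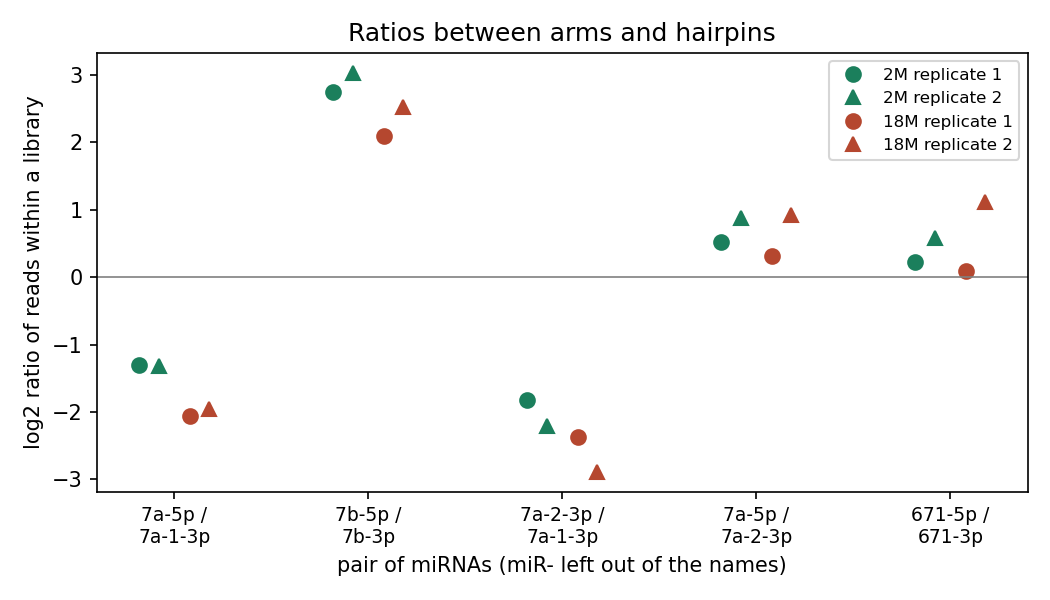
Log2 ratio of reads within each library for 5 pairs of miRNAs, with 1 point per library (circles replicate 1, triangles replicate 2). For miR-7a-5p over miR-7a-1-3p the 2-month points lie close together near −1.31 and the 18-month points near −2.01, while the ages overlap for miR-7a-5p over miR-7a-2-3p and for miR-671.

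The balance between miR-7a-5p and miR-7b-5p moved little. miR-7a-5p made up 68.0% and 71.2% of their joint reads at 2 months, against 72.6% and 71.8% at 18 months (difference 2.57 percentage points, exact permutation p = 0.33). Without 2-month replicate 1 this difference was 0.949 percentage points, and without 2-month replicate 2 it was 4.198. Position 10 was read in 14 sequences of 20 bases or more that followed the miR-7a hairpins from the reference 5′ end at every other base. Of their reads none carried C there, at most 3 in a library carried G, and the rest carried the A of miR-7a-5p or the T of miR-7b-5p. The T form of the most abundant miR-7a-5p read had 39.8% as many reads as that read, and the next most frequent single change of it had 0.332%, so the miR-7b-5p level was far above that of other single changes. In miR-671, the 5p arm made up 53.9% and 59.9% of the reads at 2 months, against 51.7% and 68.5% at 18 months, with overlapping ages (difference 3.19 percentage points, exact permutation p = 1). Without 18-month replicate 2, this difference turned to −5.19 percentage points.

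The reads of the miR-7 5p miRNAs had a nearly fixed 5′ end and a variable 3′ end. In miR-7a-5p, 98.4% to 99.5% of the reads of a library began at the reference base, so they carried the reference seed. In miR-7b-5p the share was 99.1% to 99.8%, and in miR-671-5p it was 100% in every library (95% Wilson intervals down to 98.1%). miR-7a-1-3p was less uniform, with 81.7% to 84.3% of its reads at the reference 5′ end. Most of its other reads began 1 base further in, which turned the seed from AACAAA to ACAAAU (positions 2 to 7), and the most abundant of these reads stood at 35.7 and 37.0 CPM at 2 months, against 37.1 and 40.6 CPM at 18 months.

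At the 3′ end, reads of 24 bases were the most frequent miR-7a-5p reads, longer by 1 base than the reference. The main miR-7 forms differ only in how far they run along the hairpin, and they are printed as DNA with the bases beyond position 20 in capitals.
miR-7a-5p, 24 bases: tggaagactagtgattttgtTGTT
miR-7a-5p, 23 bases: tggaagactagtgattttgtTGT
miR-7a-5p, 22 bases: tggaagactagtgattttgtTG
miR-7b-5p, 24 bases: tggaagacttgtgattttgtTGTT
miR-7b-5p, 23 bases: tggaagacttgtgattttgtTGT
miR-7b-5p, 22 bases: tggaagacttgtgattttgtTG

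Among the forms listed, those of 24 bases had the lowest log2 changes, and they were also the most abundant. The 24-base form of miR-7a-5p stood at 87.6 and 93.2 CPM at 2 months, against 46.0 and 59.9 CPM at 18 months, a log2 change of −0.77 ± 0.30 (unadjusted p = 0.0306, adjusted p = 0.448, limma). Its 23-base form stood at 56.7 and 53.7 CPM at 2 months, against 41.4 and 38.6 CPM at 18 months (−0.45 ± 0.30), which did not pass the test. The forms of 22, 21 and 20 bases had log2 changes of −0.30 ± 0.31, −0.19 ± 0.34 and 0.04 ± 0.38.

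miR-7b-5p showed the same order for its longest forms. Its 24-base form stood at 38.5 and 38.1 CPM at 2 months, against 15.7 and 21.3 CPM at 18 months, a log2 change of −1.03 ± 0.32 (unadjusted p = 0.00972, adjusted p = 0.350, limma). Its 23-base form stood at 31.8 and 24.4 CPM at 2 months, against 17.1 and 15.99 CPM at 18 months (−0.72 ± 0.32, unadjusted p = 0.0489, adjusted p = 0.492, limma). The 22-base form was at 9.06 and 9.31 CPM at 2 months, against 7.75 and 9.82 CPM at 18 months, so the ages overlapped (−0.07 ± 0.32). The forms of 21 and 20 bases, at under 3 CPM in every library, had changes of −0.29 ± 0.43 and 0.04 ± 0.42. On the log2(CPM + 1) scale the changes of such low sequences are understated, and the differences between the forms of a miRNA were not tested in the fit. With a median of ratios taken over sequences, the 24-base forms had changes of −0.76 and −1.01.

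**Figure D4:**
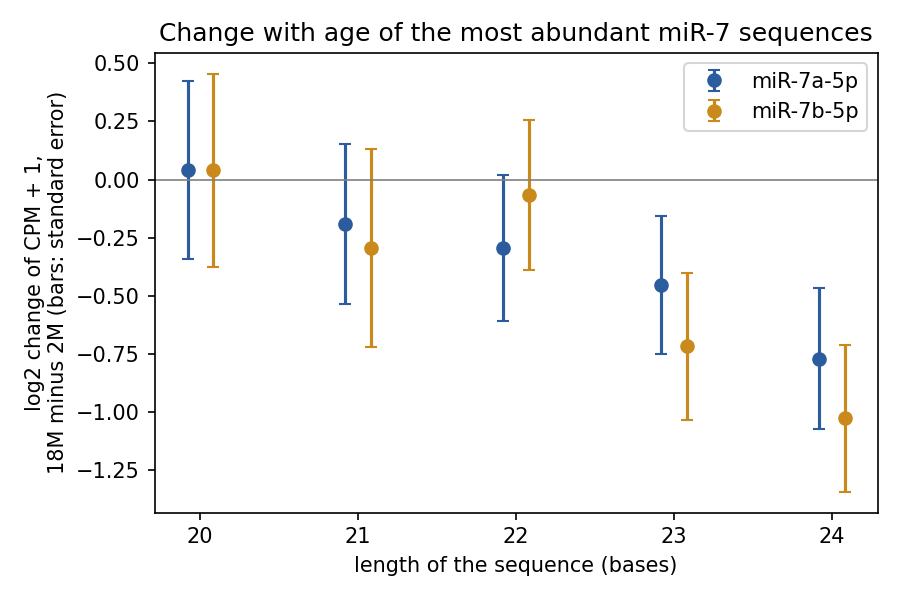
Log2 change of CPM + 1 (18 months minus 2 months, bars: standard error) of the 5 most abundant templated sequences of miR-7a-5p and of miR-7b-5p by their length in bases. The 24-base forms lie lowest, at −0.77 and −1.03, and the 20-base forms lie at 0.04, with standard errors that overlap between neighbouring lengths except at 22 and 23 bases of miR-7b-5p.

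As shares, which are free of the scaling, reads of 24 bases or more made up 50.2% (95% Wilson interval 48.0% to 52.4%) and 51.0% (48.9% to 53.1%) of miR-7a-5p at 2 months. At 18 months they made up 41.9% (39.2% to 44.7%) and 46.4% (43.7% to 49.2%), and the difference of −6.44 percentage points gave p = 0.33 in the exact permutation test. In miR-7b-5p the shares were 47.1% and 51.0% at 2 months, against 38.4% and 41.4% at 18 months (difference −9.10 percentage points, exact permutation p = 0.33). Reads of 22 bases or fewer took the opposite course, from 15.7% and 16.9% to 21.8% and 28.5% in miR-7b-5p and from 18.1% and 20.7% to 22.02% and 25.04% in miR-7a-5p. In each of these the ages did not overlap.

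The lengths of all miRNAs give the background. The mean read length of miR-7a-5p was 23.3 bases in both 2-month libraries and 23.1 bases in both 18-month libraries (difference −0.132 bases). That of miR-7b-5p was 23.3 bases in both 2-month libraries and 23.15 and 22.996 bases at 18 months (difference −0.218 bases). Over 456 miRNAs the median difference was −0.0338 bases, and in 34.4% both 18-month libraries had the shorter mean length. A difference as low or lower was seen in 12.5% of miRNAs for miR-7a-5p and in 5.48% for miR-7b-5p. The difference of miR-7a-1-3p was near the median, at −0.0404 bases. Of the members, miR-671-3p had the lowest difference, at −0.286 bases with overlapping ages (2.19% of miRNAs were as low or lower), and miR-671-5p differed by 0.0929 bases, also with overlapping ages.

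**Figure D5:**
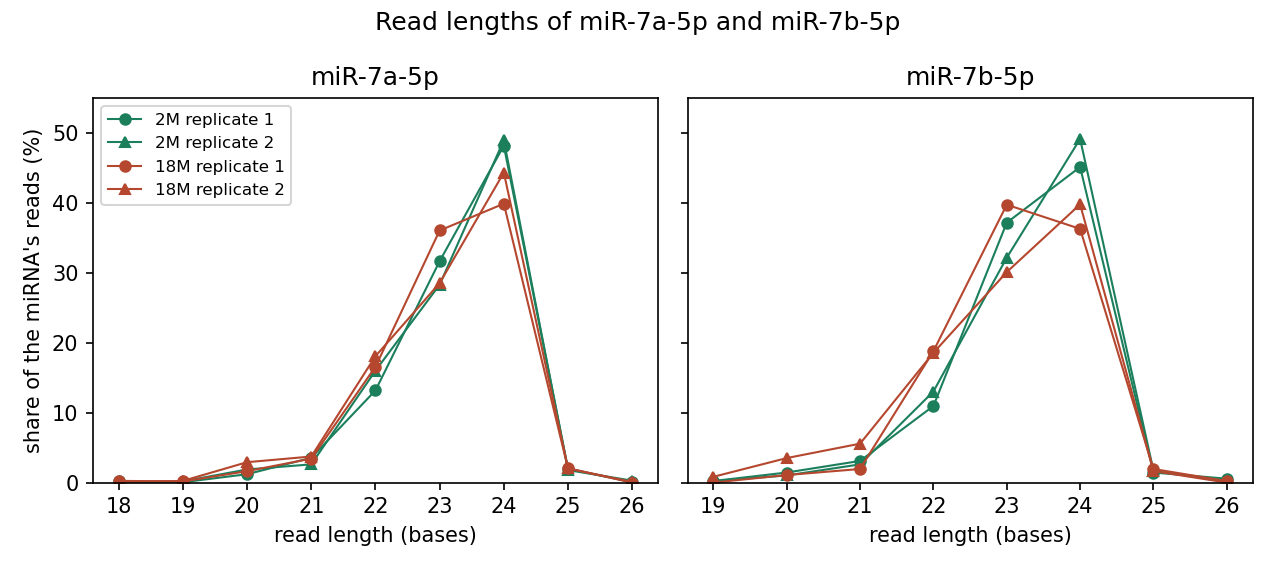
Share of the reads of miR-7a-5p (left) and miR-7b-5p (right) at each read length in bases, with 1 line per library (circles replicate 1, triangles replicate 2). At 24 bases both 18-month lines lie below both 2-month lines, and at 22 bases they lie above them.

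Ends not templated by the hairpin are of interest because target-directed degradation is accompanied by tailing and trimming of the miRNA's 3′ end. Such ends were rare in miR-7a-5p, at 2.14% and 2.61% of its reads at 2 months, against 1.79% and 2.998% at 18 months, with overlapping ages (exact permutation p = 1). They were as rare in miR-7b-5p, at 2.77% and 2.60% at 2 months, against 3.46% and 1.86% at 18 months. However, the 23- and 24-base forms of both miRNAs end in T and match a hairpin throughout. A T added to a read of 22 or 23 bases is therefore counted as templated. Added T could thus largely not show in these shares, and tailing with T was not tested. The reads of miR-7a-5p past the reference end, 50.4% and 51.2% at 2 months, against 42.2% and 46.6% at 18 months, mostly matched the hairpin. In its 24-base form, a last base from the hairpin and an added T cannot be told apart. Untemplated ends were more frequent in miR-7a-1-3p, at 11.6% to 13.4% of a library's reads, and most frequent in miR-671, at 11.8% to 19.7% for miR-671-5p and 15.3% to 26.4% for miR-671-3p. For the total of untemplated ends the ages overlapped in each of the 5 members. By base, ends of A only made up 8.33% and 6.56% of miR-671-5p reads at 2 months, against 4.62% and 2.35% at 18 months, with no overlap. In miR-671-3p, ends of T only were at 14.6% and 12.5% at 2 months, against 11.5% and 4.08%. Its ends of A only were at 5.37% and 10.196%, against 14.8% and 10.204%. In miR-7a-1-3p, ends of A only were at 4.94% and 3.61% at 2 months, against 5.80% and 5.28%. The ages of these shares did not overlap (exact permutation p = 0.33 each), by a very small margin for the ends of A in miR-671-3p. The miR-671 shares rest on 4 to 32 reads per library. Ends of T only in miR-7a-5p did not overlap either, but had at most 3 reads per library. The ages did overlap for ends of A only in miR-7a-5p and for ends of T only in miR-7a-1-3p and miR-671-5p. In miR-7b-5p they overlapped for both bases.

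The forms of the other members were tested as single sequences in the same way. Of 14287 tested sequences, 10.1% passed an unadjusted p of 0.05 (4.23% lower and 5.87% higher at 18 months), and 0.042% passed after adjustment. Of the members' 156 sequences 38 reached the mean of 1 CPM for testing, of which 4 fell, 1 rose and none passed after adjustment. In 17 of the 38 (44.7%) the ages did not overlap, against 41.7% of all tested sequences. The 22-base form of miR-671-5p fell from 3.82 and 4.83 CPM to 1.14 and 1.32 CPM (log2 change −1.25 ± 0.34, unadjusted p = 0.00466, adjusted p = 0.301, limma), while its reference form of 23 bases had overlapping ages (−0.42 ± 0.39). The 20-base form of miR-7a-1-3p rose from 17.7 and 16.1 CPM to 31.4 and 25.7 CPM (0.72 ± 0.31, unadjusted p = 0.0464, adjusted p = 0.486, limma). The reference form of miR-7a-1-3p, of 22 bases, stood at 208 and 205 CPM at 2 months, against 213 and 199 CPM at 18 months.

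The study scores each 6mer seed (positions 2 to 7) by the viability of cells transfected with a short duplex that carries it, in percent of the control, where a low score marks a toxic seed. The miR-7 seed GGAAGA had a 6mer seed viability of 50.9%, and 99.4% of the reads with this seed came from miR-7a-5p and miR-7b-5p. Its summed level was 269 and 267 CPM at 2 months, against 160 and 190 CPM at 18 months. The miR-671-5p seed GGAAGC, which differs from it in its last base, had a viability of 11.4%, and only 2.06% of 3925 seeds scored lower. miR-671-5p gave 85.8% of the reads with that seed, whose level was 30.5 and 37.8 CPM at 2 months, against 21.7 and 24.3 CPM at 18 months.

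The 3p arms carried less toxic seeds. AACAAA of miR-7a-1-3p scored 76.1%, and only 32.3% of the reads with this seed came from the member, with miR-495-3p as the next source. CCGGUU of miR-671-3p scored 66.9%. Weighted by reads, the mean 6mer seed viability over the 5 members was 64.9% and 64.6% at 2 months, against 68.1% and 67.5% at 18 months, while their summed level was 764 and 805 CPM at 2 months, against 676 and 754 CPM at 18 months.

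Fragments of the target RNAs themselves were not measured by this method in a usable number. No sequence carried the name of Cyrano or Cdr1as, the circular form of Cdr1as was not measured here, and 1 sequence carried the identifier of a target transcript, at 0.441 CPM in 18-month replicate 2 only. Sequences found whole in a target transcript on either strand, 21 in all, summed to 2.74 to 5.53 CPM per library and were not shown to come from it. Reads of the 4 hairpins that were annotated to no mature miRNA summed to 6.76 to 8.68 CPM per library.

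Other miRNAs known to be lowered by target-directed degradation were set beside miR-7. Of 6 tested, 2 fell and none rose at an unadjusted p under 0.05 in limma, and the median log2 change was −0.02. Of all tested miRNAs, 12.1% fell and 4.17% rose. After the median of ratios 2 rose, miR-29b-3p and miR-30b-5p, 2 fell, and the median turned to 0.19. Among all 456 tested miRNAs 39 rose and 25 fell with that scaling. The 2 that fell in the fit on CPM were miR-322-5p, at 322 and 349 CPM at 2 months, against 162 and 219 CPM at 18 months (−0.83 ± 0.23, adjusted p = 0.229, limma), and miR-503-5p, its neighbour in the same cluster (−1.16 ± 0.40, adjusted p = 0.266, limma), and they fell after the median of ratios too. miR-29b-3p, the target of Nrep transcripts in this process, had a change of 0.59 ± 0.33 on CPM, which did not pass, and of 0.80 ± 0.32 after the median of ratios (adjusted p = 0.340, limma). Among 8 neuronal miRNAs none rose or fell, with a median of −0.33, or −0.12 after the median of ratios.

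miRNAs of pituitary, olfactory and endocrine epithelium, a list set beside miR-7 because miR-7 is known to be abundant in pituitary and endocrine pancreas, were higher at 18 months. Of 9 tested, 7 rose and none fell at an unadjusted p under 0.05 in limma, beside 4.17% of all tested miRNAs that rose, with a median of 0.74, and none passed after adjustment. After the median of ratios 9 rose, with a median of 0.95, beside 39 of all 456 miRNAs. These counts are not of independent miRNAs. Most of the list belongs to the miR-200 and miR-141 family or to the cluster of miR-183-5p, miR-96-5p and miR-182-5p. The list was also chosen with earlier results of these data known. Their summed level was 33282 and 56648 CPM at 2 months, against 70480 and 75144 CPM at 18 months. miR-375-3p, the endocrine marker of this list, stood at 41.5 and 53.9 CPM at 2 months, against 53.7 and 83.5 CPM at 18 months, with overlapping ages. Among markers of other cells of the brain, none of 3 brain neuron, 3 oligodendrocyte, 3 immune and 2 red blood cell miRNAs passed. Of 2 endothelial miRNAs 1, miR-126a-3p, fell (−1.15 ± 0.43, adjusted p = 0.266, limma), beside 12.1% of all tested miRNAs. It stood at 9242 and 8854 CPM at 2 months, against 2557 and 6489 CPM at 18 months, and after the median of ratios it did not pass (−0.94 ± 0.41, unadjusted p = 0.0564, limma). The part of cell composition in the lower miR-7 was not tested.

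The miRNAs most like miR-7a-5p over the 4 libraries were found by the root mean square difference of log2(CPM + 1), each miRNA centred on its own mean. This was 0.0228 for miR-19b-3p, 0.0506 for miR-3547-3p, 0.0581 for miR-466d-3p, 0.0724 for miR-543-3p and 0.0779 for miR-380-3p. Among the members it was 0.117 for miR-7b-5p, 0.189 for miR-671-5p, 0.305 for miR-671-3p and 0.347 for miR-7a-1-3p, beside a median of 0.310 over the other tested miRNAs. Thus miR-7b-5p lay close to miR-7a-5p, and miR-7a-1-3p, which shares the Mir7-1 hairpin with it, did not. miR-7a-2-3p, which shares the Mir7-2 hairpin with it (log2 change −0.49), is not a member, and its distance is not given here. For miR-671-3p the most alike were miR-187-5p (0.0487), miR-138-2-3p (0.0952), miR-760-3p (0.0984), miR-134-3p (0.103) and miR-455-3p (0.121). These are descriptions over 4 libraries.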

How the data were processed

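The authors trimmed and cleaned the reads (Trim Galore is listed in the submitters' processing notes, with no version), removed rare reads, matched the rest to mouse small RNAs and deposited CPM per sequence and library. They also deposited a score, the 6mer seed viability, and a total column, a signal that sums the CPM of the 4 libraries and was not used here. The labels give 250 mg of tissue per library. Here, CPM were summed by miRNA name, and age was tested two-sided, with no other covariate, by limma (trend on intensity) on log2(CPM + 1). Tested were 456 miRNAs whose mean reached 10 CPM and 14287 sequences whose mean reached 1 CPM, with Benjamini-Hochberg adjustment over all of them. The study takes rows with p under 0.05 and does not name the test for them. Whole reads were recovered from 100% of the nonzero values and used for shares, ratios and, as alternatives, edgeR and DESeq2. Shares and ratios were compared by exact permutation tests, which cannot go below 0.33 here.

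Reads were aligned by their first 12 bases to RefSeq hairpins, and a 3′ end of up to 3 bases that the hairpin does not hold was called untemplated. Genes and transcripts are from GENCODE on GRCm38. Seed matches were searched on the transcript strand only. The RNA names of the table refer to another build, from which no coordinates were taken.

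The named miRNAs are the 5 members, the lists given above, up to 5 most abundant sequences per member and the 5 miRNAs most like miR-7a-5p and miR-671-3p. Members and lists were chosen with earlier results of these data known, while the share of miR-7a-5p over miR-7a-1-3p, the length classes and the mean read lengths were added after the values were seen. Alternatives were other pseudocounts and filters, limma without the trend, the median of ratios, edgeR, DESeq2, the replicate number as a block and each library left out. The fits were tested on simulated data. Versions were DESeq2 1.42.0, edgeR 4.0.16 and limma 3.58.1 under R 4.3.3. Plots were made in matplotlib 3.10.9, and shares in scipy 1.17.1 and pandas 2.3.3 under Python 3.11.15.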

Additional observations from a re-analysis of the deposited data

How the results depend on the processing

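The fall of miR-7a-5p and miR-7b-5p kept its direction under every alternative run but not its side of the threshold. The log2 change of miR-7a-5p was −0.36 after the median of ratios, −0.35 in edgeR and −0.36 in DESeq2, and that of miR-7b-5p was −0.54, −0.53 and −0.54, none past an unadjusted p of 0.05. Leaving out a library at a time gave values from −0.69 to −0.46 for miR-7a-5p, which passed only without 18-month replicate 2, and from −0.89 to −0.60 for miR-7b-5p, which did not pass without 2-month replicate 1 or without 18-month replicate 1. The adjusted p was 0.264 to 0.595 for miR-7a-5p and 0.235 to 0.449 for miR-7b-5p over these alternatives. miR-7a-1-3p, miR-671-5p and miR-671-3p kept their direction and did not pass under any alternative, with log2 changes from 0.05 to 0.34, from −0.66 to −0.13 and from −0.89 to −0.27. At a mean of at least 100 CPM miR-7b-5p and both arms of miR-671 were not tested.

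The number of miRNAs called was 125 without a filter, 43 at a mean of at least 100 CPM and 1 after adjustment, and 55 to 74 with each library left out. Of the 74 called miRNAs 55 were lower and 19 higher, and after the median of ratios 25 were lower and 39 higher (23 and 39 in edgeR). For sequences it was 424 at a mean of at least 10 CPM, 3327 without a filter and 6 after adjustment, and 1065 to 1411 with each library left out.

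The difference in the share of miR-7a-5p reads past the reference end was −6.41 percentage points. The share of reads with an untemplated 3′ end, a different measure, differed by 0.026 percentage points. With each library left out, the difference in the share past the reference end was −8.62 to −4.19. For the 5p arm of miR-671 it was −5.19 to 11.6. The share of miR-7a-5p in the reads with miR-7a-1-3p differed by −9.28 to −8.29, and by −6.76 with both 3p arms in the total.

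The labels do not say whether same-numbered libraries share more than their number. Their deviations from the age means correlated at 0.180 over 456 miRNAs, and with the replicate number as a replicate block the unadjusted p of limma was 0.0308 for miR-7a-5p and 0.0288 for miR-7b-5p.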
